A study of Homo sapiens with 32 samples.

Results

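The transcripts described here are those of CLK1, CLK2, CLK3, CLK4, OGT and OGA, 6 of the 63793 annotated genes outside the mitochondrial chromosome. They were chosen by name because introns of their transcripts are known to be detained in the nucleus, with earlier results of these data known. The members were the individual-nucleotide crosslinking and immunoprecipitation (iCLIP) tags on the gene strand between the annotated start and end of each gene in the hg19 build. A tag is 1 deduplicated read placed at the base where protein was crosslinked to RNA.

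The libraries came from 4 groups of stable FlpIn cells, labelled HEK293T and called FlpIn-293 in the growth protocol, an established line of human embryonic kidney origin that carries a site for integrating transgenes. The stable lines expressed Alyref-FLAG, Chtop-FLAG, Nxf1-FLAG or, in the Control, the empty FLAG construct. Nxf1 is the receptor that carries mRNA through the nuclear pore, and Alyref and Chtop belong to TREX, which recruits it to the RNA. Tetracycline induced the tagged proteins for 48 h, with 10 ng/mL in the lines of the TREX subunits and only 5 ng/mL in the Nxf1 line. The labels give no dose for the Control. All groups were immunoprecipitated with an anti-FLAG antibody. The factors were thus tagged, induced proteins from stable lines, and not the endogenous ones. Each group had 3 libraries, from 32 sequencing runs in all. The sources used here do not say whether the replicates came from separate cultures, so that p-values may measure technical spread only.

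A detained intron is left in an otherwise spliced, polyadenylated RNA that stays in the nucleus, where the intron is later removed or the RNA is degraded. The CLK genes encode dual-specificity kinases that phosphorylate SR proteins, a family of splicing factors. OGT encodes the enzyme that attaches O-linked N-acetylglucosamine to nuclear and cytoplasmic proteins, and OGA (MGEA5 in older annotation) the enzyme that removes it. In both families, splicing of an intron of the transcript is known to respond to the activity of the encoded enzymes. The comparison asked how much of the crosslinking of each factor fell in the introns of these transcripts, and in which introns.

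The 12 libraries held 7017 to 631704 tags. Replicate 1 was the shallowest of every group, and Nxf1 replicate 1 and Control replicate 1 held only 8134 and 7017 tags. A count of 0 tags in a library allows up to 3 tags, which is 4.75 counts per 1000000 tags (CPM) in Alyref replicate 2 and 428 CPM in Control replicate 1. The values of these 2 shallow libraries stood apart from those of replicates 2 and 3 for several members, and results were also computed without them. RNA abundance was not measured in these files, so that more RNA and more crosslinking per RNA cannot be told apart. Intervals given for shares cover counting error only.

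The leading intron of each transcript had the splice sites shown here, read from the hg19 genome sequence in the direction of transcription. They are shown because these introns had the most tags per nt in their gene among introns of at least 50 nt. Capitals mark the first and last bases of the intron, GT and AG. Each 5′ site starts with 3 exonic bases, and each 3′ site ends with 3 exonic bases.
CLK1 intron 3, 5′ site (chr2:201725952-201725963, minus strand): gggGTatgaacg
CLK4 intron 3, 5′ site (chr5:178045548-178045559, minus strand): tcgGTatgattg
CLK2 intron 4, 5′ site (chr1:155238490-155238501, minus strand): gatGTacaagcc
CLK3 intron 4, 5′ site (chr15:74914555-74914566, plus strand): gatGTacagcca
OGT intron 4, 5′ site (chrX:70764483-70764494, plus strand): aagGTaggtgtt
OGA intron 3, 5′ site (chr10:103572778-103572789, minus strand): ctgGTaatcttt
CLK1 intron 3, 3′ site (chr2:201724936-201724958, minus strand): cgcccacttgacgtttccAGaag
CLK4 intron 3, 3′ site (chr5:178044433-178044455, minus strand): ctgcccacttgccgttccAGaag
CLK2 intron 4, 3′ site (chr1:155238148-155238170, minus strand): cctgctctctttcatttcAGatg
CLK3 intron 4, 3′ site (chr15:74914815-74914837, plus strand): caatttcttttctctcctAGatg
OGT intron 4, 3′ site (chrX:70767737-70767759, plus strand): tttcattaacccctcctaAGgca
OGA intron 3, 3′ site (chr10:103570069-103570091, minus strand): acatagactctgttctttAGagc
The 5′ sites of CLK1 and CLK4 matched at 8 of 12 positions and those of CLK2 and CLK3 at 9 of 12, whereas the other CLK pairs matched at 3 to 6. At the 3′ sites CLK1 and CLK4 matched at 14 of 23 positions and CLK2 and CLK3 at 12, little more than the other CLK pairs with 10 or 11. The 18 intronic bases before AG held 16 pyrimidines in CLK2 and CLK3, 14 in CLK4 and OGT, 13 in CLK1 and 12 in OGA.

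OGT held most of the tags. Its gene body (ENSG00000147162, chrX:70752937-70795742) held 2635 tags over all libraries, against 1035 for OGA (ENSG00000198408, chr10:103544200-103578222), 264 for CLK2 (ENSG00000176444, chr1:155232659-155248282), 253 for CLK1 (ENSG00000013441, chr2:201717732-201729414), 152 for CLK4 (ENSG00000113240, chr5:178029665-178057616) and 111 for CLK3 (ENSG00000179335, chr15:74890841-74937755). Per kb of exon, on a scale of tags per kb and 1000000 tags, the pooled Chtop libraries gave 202 for OGT, 84.1 for OGA, 27.2 for CLK1, 27.0 for CLK2, 16.9 for CLK4 and 5.31 for CLK3. The pooled Alyref libraries gave 137 for OGT and 55.5 for CLK1, which came before OGA at 42.1, and CLK2, CLK4 and CLK3 followed at 38.4, 17.3 and 16.4. OGA lay above CLK1 in the Chtop libraries and below it in the Alyref libraries.

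**Figure D1:**
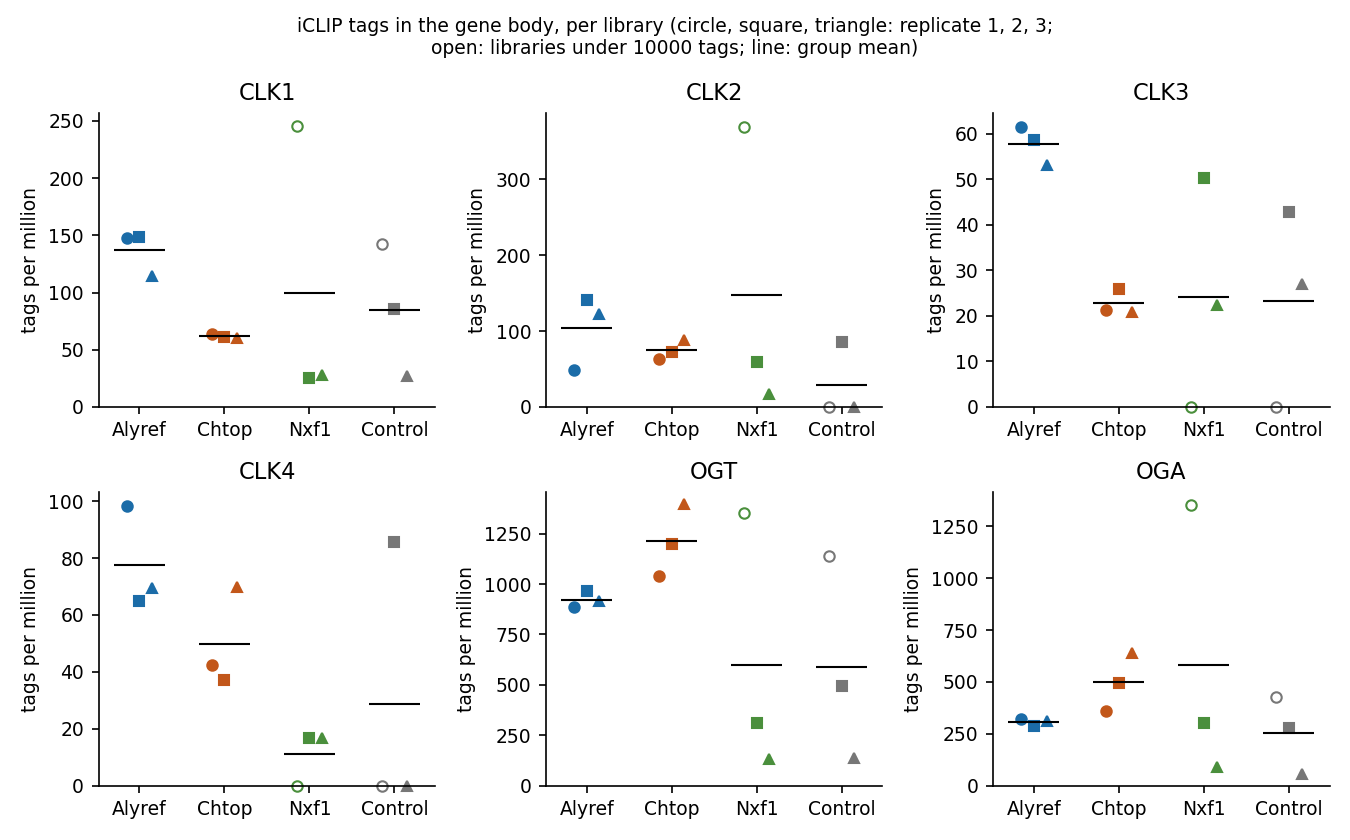
Tags in the body of each gene per 1000000 tags of the library (vertical axes from 0, scaled per gene) for the 4 groups on the horizontal axis. Each symbol is 1 library and the line is the group mean. CLK1 lay at 114 to 149 CPM in the Alyref libraries and at 60.5 to 63.8 CPM in the Chtop libraries, and the open symbols of the 2 shallow libraries rest on 0 to 11 tags.

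CLK1 was the member called higher in Alyref than in Chtop. It held 148, 149 and 114 CPM in Alyref replicates 1, 2 and 3, against 63.8, 61.2 and 60.5 CPM in Chtop, 246, 25.2 and 27.9 CPM in Nxf1 and 143, 85.8 and 27.0 CPM in the Control. The values of 246 and 143 CPM rested on 2 tags and 1 tag. CLK1 was higher in Alyref than in Chtop by 1.04 ± 0.34 (SE) on the log2 scale (adjusted p = 0.0310, edgeR quasi-likelihood test, n = 3 per group) and higher than in Nxf1 by 1.66 ± 0.50 (SE, adjusted p = 0.0450). Both calls were lost without Alyref replicate 2 (adjusted p = 0.318 and 0.275), without Alyref replicate 3 (0.217 and 0.150) and without Chtop replicate 2 (0.181 and 0.0595). The first was also lost without Chtop replicate 3 (0.192), and the second without Nxf1 replicate 2 (0.251) or 3 (0.341). With the replicate block the adjusted p was 0.0606 and 0.0682, and with no filter on low counts 0.245 and 0.0926. With DESeq2 size factors the second was also lost (1.57 on the log2 scale, adjusted p = 0.0619). The DESeq2 test gave 0.254 for the first and no adjusted p for the second. Of all 3369 genes tested, 16.5% were called in the comparison of Alyref with Chtop and 4.72% in that of Alyref with Nxf1.

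OGT was called higher in Chtop than in the Control and than in Nxf1, and Alyref was called above neither. It held 886, 967 and 913 CPM in the Alyref libraries and 1041, 1197 and 1394 CPM in the Chtop libraries. The Nxf1 libraries gave 1352, 310 and 134 CPM and the Control libraries 1140, 493 and 135 CPM, so that the 2 shallow libraries, with 11 and 8 tags, reached the range of the TREX subunits and the others lay below it. OGT was higher in Chtop than in the Control by 1.58 ± 0.49 (SE) on the log2 scale (adjusted p = 0.0278, edgeR) and higher in Chtop than in Nxf1 by 1.89 ± 0.48 (SE, adjusted p = 0.00492). The first call was lost without Chtop replicate 3 (adjusted p = 0.0739) and without Control replicate 3 (0.145), the second without Nxf1 replicate 3 (0.0925). Without the 2 shallow libraries the differences were 1.89 and 2.41. For Alyref the differences were 1.07 ± 0.49 (SE, adjusted p = 0.285) from the Control and 1.38 ± 0.48 (SE, adjusted p = 0.0841) from Nxf1. For OGT the latter passed with the replicate block (adjusted p = 0.0409), with no filter (0.0321), without the 2 shallow libraries (0.00814), and without replicate 1 of any group or Control replicate 2 or 3. The share of all genes called was 15.2% for Chtop against Control and 25.8% for Chtop against Nxf1.

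OGA did not pass the test in any comparison at the gene level, but did for 3 of them under some alternatives. It held 320, 290 and 310 CPM in Alyref, 361, 496 and 638 CPM in Chtop, 1352, 302 and 89.2 CPM in Nxf1 and 428, 279 and 54.1 CPM in the Control. The difference of Alyref from Chtop was -0.87 ± 0.35 (SE) on the log2 scale (adjusted p = 0.0844, edgeR). This passed without Alyref replicate 1 (0.0426) or Nxf1 replicate 3 (0.0494). OGA in Chtop differed by 1.37 ± 0.51 (SE, adjusted p = 0.0610) from the Control and by 0.89 (adjusted p = 0.108) from Nxf1. The difference of OGA from the Control passed with no filter (0.0245), with the replicate block (0.0325), without the 2 shallow libraries (0.0462), and without replicate 1 of any group, Chtop replicate 2 or Nxf1 replicate 3 (0.0117 to 0.0483). That of OGA from Nxf1 passed without the 2 shallow libraries (0.0119) and without replicate 1 of Alyref (0.0378), Chtop (0.0489) or Nxf1 (0.00950).

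CLK2, the fourth gene that passed the filter on low counts, held 49.2, 141 and 123 CPM in Alyref, 63.8, 72.4 and 88.5 CPM in Chtop, 369, 58.7 and 16.7 CPM in Nxf1 and 0, 85.8 and 0 CPM in the Control, with overlapping groups. CLK3 and CLK4 did not pass the filter. CLK3 lay at 53.0 to 61.5 CPM in the Alyref libraries and at 21.0 to 26.0 CPM in the Chtop libraries, and CLK4 at 64.9 to 98.4 and 37.1 to 69.8 CPM. The Alyref and Chtop ranges did not overlap for CLK3, as for CLK1, OGT and OGA, but did for CLK2 and CLK4. The share of all genes without such an overlap was not counted, so that this is a description only.

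Over the 6 comparisons, 4 of the 24 gene-level tests of members were called, 10 had an unadjusted p under 0.05, and DESeq2 called 2. The 4 calls were 1 of the 4 members tested in each of 4 comparisons. Of all genes, 15.2% were called between Chtop and Control, 16.5% between Alyref and Chtop, 4.72% between Alyref and Nxf1 and 25.8% between Chtop and Nxf1. No member was called between Alyref and Control, where 0.267% of all genes were, or between Nxf1 and Control, where 0.0297% were. In these comparisons 1 member and 0 members had an unadjusted p under 0.05, and DESeq2 called 0 in each. The comparisons with a factor in common share its libraries.

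The pooled share of tags outside the exons of the canonical transcript was lowest in Chtop and highest in Nxf1 and the Control. Over the 6 transcripts it was 24.9% in Alyref, 16.9% in Chtop, 53.8% in Nxf1 and 53.5% in the Control. By library it was 29.1%, 24.5% and 24.7% in Alyref replicates 1 to 3, 14.7%, 19.5% and 14.2% in Chtop, 22.2%, 56.0% and 65.5% in Nxf1, and 16.7%, 60% and 66.7% in the Control. Alyref and Chtop did not overlap. Over protein-coding genes with at least 20 tags, the median intronic share was also higher in Alyref (44.6%) than in Chtop (28.2%). Shares of all genes by library were not computed, so that this split is not shown to be particular to these transcripts. The 2 shallow libraries, with 27 and 12 tags, lay at 22.2% and 16.7%. Without these 2 libraries the pooled shares were 59.6% in Nxf1 and 61.0% in the Control.

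**Figure D2:**
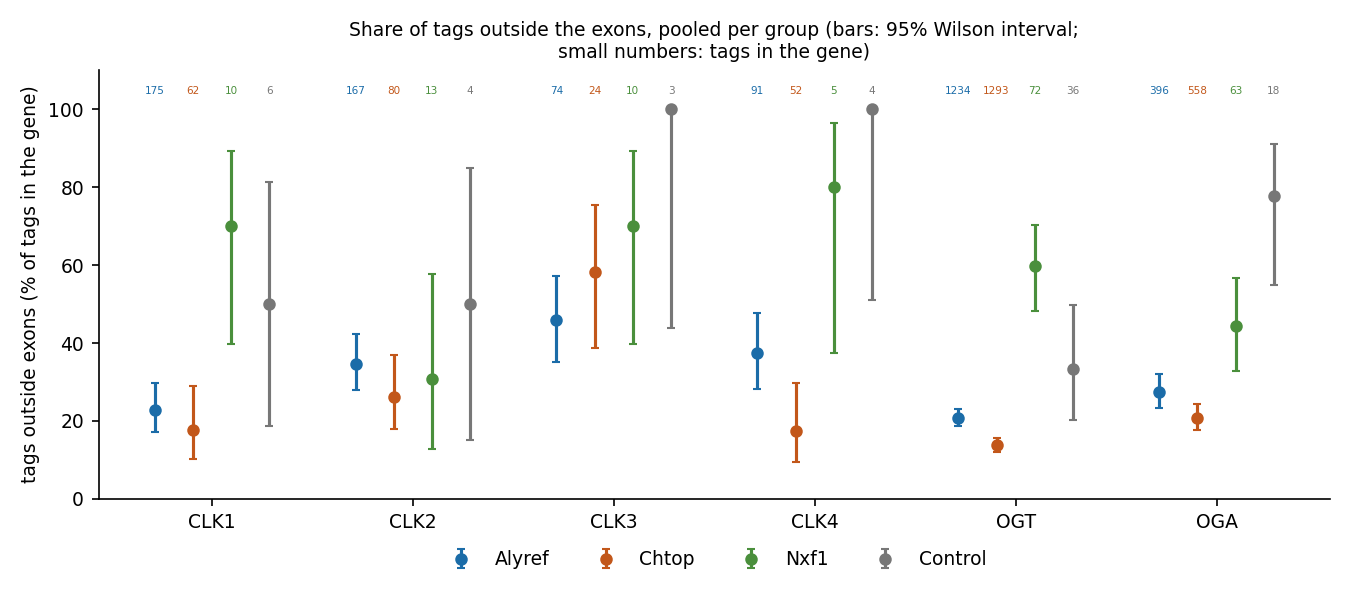
Percentage of the tags of each gene that lay outside the exons of its canonical transcript, with the libraries of a group pooled (points) and 95% Wilson intervals (bars). The intervals of OGT and OGA in Nxf1 lie above those in Alyref and Chtop, and the intervals of the CLK genes in Nxf1 and the Control, from 3 to 13 tags, are wide.

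For OGT the share was 20.8% in Alyref (257 of 1234 tags, Wilson 95% interval 18.7% to 23.2%), 13.8% in Chtop (178 of 1293, 12% to 15.8%), 59.7% in Nxf1 (43 of 72, 48.2% to 70.3%) and 33.3% in the Control (12 of 36, 20.2% to 49.7%). By library it was 25%, 20.9% and 20.1% in Alyref, 8.16%, 16.9% and 10.9% in Chtop, 27.3%, 67.6% and 62.5% in Nxf1, and 25%, 34.8% and 40% in the Control. All Nxf1 libraries lay above all Alyref and Chtop libraries, but the lowest, Nxf1 replicate 1, rested on 3 of 11 tags. The share of all genes separated in this way was not counted, so that this is a description only. For OGA the share was 27.5% in Alyref (109 of 396), 20.8% in Chtop (116 of 558), 44.4% in Nxf1 (28 of 63) and 77.8% in the Control (14 of 18). By library it was 26.9%, 29.0% and 26.2% in Alyref and 11.8%, 24.3% and 17.9% in Chtop. The Nxf1 libraries gave 27.3%, 47.2% and 50%, the first within the Alyref range. The Control libraries gave 0%, 92.3% and 100%, and replicate 2 held 12 of the 14 tags outside exons. The pooled share of Nxf1 thus ranked above that of the Control for OGT and below it for OGA, with intervals that overlapped in each case.

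Over protein-coding genes with at least 20 tags in the canonical transcript, the median intronic share was 44.6% in Alyref (9095 genes), 28.2% in Chtop (8033 genes), 70.7% in Nxf1 (3049 genes) and 90.9% in the Control (392 genes). OGT, with 20.8% in Alyref, lay above 12% of the Alyref genes, above 19.1% of the Chtop genes, above 35.2% of the Nxf1 genes and above 1.79% of the Control genes. The intronic share of OGT was thus below the median gene in every group. Among the members with at least 20 tags in a group, only CLK3 in Chtop (52.4% of 21 tags) lay above the median, and it lay above 82.4% of the Chtop genes. OGA (44.4% of 63 tags) lay above 19.0% of the Nxf1 genes.

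The ratio of intronic to exonic tags was tested within libraries for all 6 members among 8946 genes. The log2 ratio of OGT in Chtop differed from that in Nxf1 by -3.22 ± 0.73 (SE, adjusted p = 0.00125, edgeR), and 15.5% of all genes were called in this comparison. The median of all genes in it was -1.97. OGA was lower in Chtop than in the Control, with a difference of -3.66 ± 1.09 (SE, adjusted p = 0.0215), where 8.69% of genes were called and the median was -2.98. With exonic and intronic columns scaled by their own totals, so that a ratio is relative to that of all genes, these differences were -1.47 for OGT (adjusted p = 0.200) and -0.86 for OGA (adjusted p = 1), and neither was called. The OGA call was also lost without Control replicate 2 (-1.49, adjusted p = 0.839), which held 13 of its 18 Control tags, without Control replicate 3 (-3.37, 0.0960) and with the replicate block (0.0602).

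No member was called for the ratio between Alyref and Control, Alyref and Chtop, Alyref and Nxf1, or Nxf1 and Control, where 0.112%, 0.0559%, 0.279% and 0% of genes were called by edgeR. In these comparisons 2, 0, 2 and 0 of the 6 members had an unadjusted p under 0.05 and DESeq2 called 1, 0, 1 and 0. In the comparison of Nxf1 with the Control, 350 of the 8946 genes had an unadjusted p under 0.05 and DESeq2 called 0. For OGT the ratio in Alyref differed from that in Nxf1 by -2.27 ± 0.71 (SE, adjusted p = 0.113). This difference was -2.77 (adjusted p = 0.00148) without the 2 shallow libraries.

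A single intron held most of the intronic tags of OGT. Intron 4 (chrX:70764486-70767756, 3271 nt), which lies in the coding part of the transcript, held 319 of the 489 intronic tags. It makes up 8.76% of the intron length and held 60.3% of the intronic tags in Alyref (Wilson 95% interval 54.2% to 66.1%), 71.8% in Chtop (64.7% to 77.9%), 67.4% in Nxf1 (52.5% to 79.5%) and 66.7% in the Control (39.1% to 86.2%). Its density was 97.5 tags per kb, against 4.99 per kb in the other 20 introns together. The whole intron lies inside an exon of 2 other annotated isoforms.

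**Figure D3:**
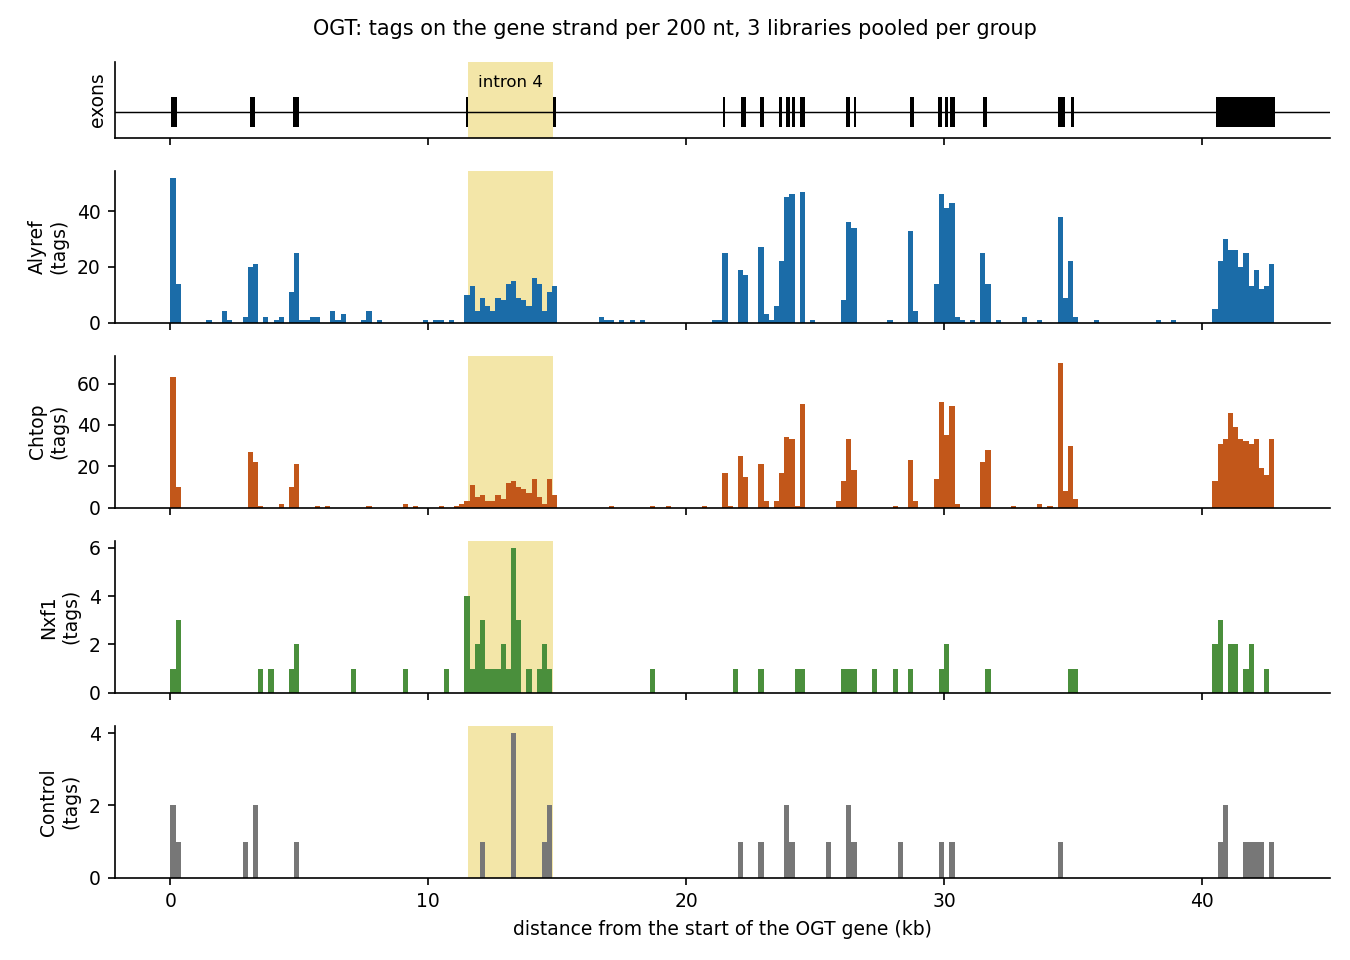
Tags per 200 nt along the OGT gene (horizontal axis, kb from the gene start) in the pooled libraries of each group (vertical axes in tags, scaled per group), with exons as black boxes and intron 4 shaded. Tags lie along all of intron 4 in Alyref and Chtop, and it holds 29 of the 43 intronic tags of Nxf1.

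Tags covered intron 4 throughout. In 10 equal parts from its 5′ end, it held 38, 26, 14, 26, 29, 54, 30, 32, 37 and 33 tags. Part 6 was highest in Alyref, Chtop, Nxf1 and the Control, with 22, 21, 7 and 4 tags. The exons on either side, exon 4 (69 nt) and exon 5 (117 nt), held 7 and 17 tags over all libraries, at most 145 per kb, whereas the other 20 exons held 268 to 708 tags per kb. All windows of 30 nt in intron 4 occurred once in the genome, so that exact reads of at least 30 nt could be mapped uniquely. Shorter reads and reads with mismatches were not examined.

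The levels of OGT intron 4 overlapped between all groups. It held 123, 120 and 114 CPM in the Alyref libraries, 63.8, 150 and 100 CPM in Chtop, 246, 159 and 44.6 CPM in Nxf1 and 285, 129 and 0 CPM in the Control. The means were 119 ± 4.41, 105 ± 43.5, 150 ± 101 and 138 ± 143 CPM (SD, n = 3 each). The 3 Alyref libraries were closest together. OGT exons held 664, 765 and 729 CPM in Alyref, 956, 995 and 1243 CPM in Chtop, 984, 101 and 50.2 CPM in Nxf1, and 855, 322 and 81.1 CPM in the Control. In Nxf1 replicates 2 and 3, the intron thus held 19 of 37 and 8 of 24 OGT tags, against 12 and 9 in all exons.

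**Figure D4:**
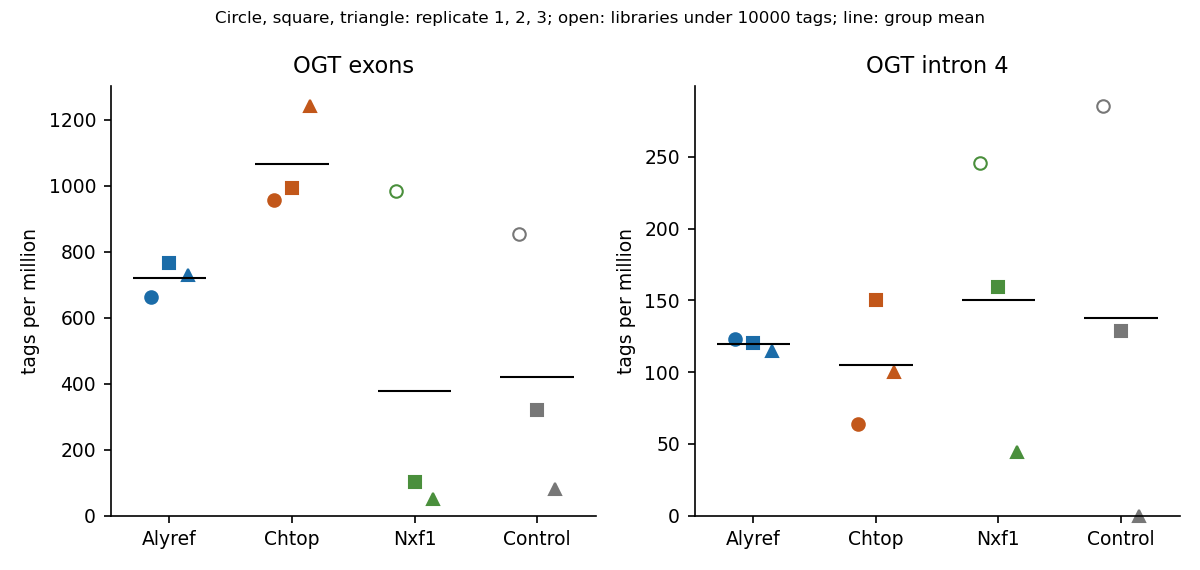
OGT tags per 1000000 tags of the library in the joined exons (left) and in intron 4 (right), with the 4 groups on the horizontal axis, 1 symbol per library and the group mean as a line. The exon values of Alyref and Chtop lie above those of Nxf1 and Control replicates 2 and 3, whereas in intron 4 the groups overlap.

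Exons and introns were then tested as separate features, 2624 introns and the joined exons of 4726 genes in 1 fit. The exons of OGT were higher in Alyref than in Nxf1 by 2.13 ± 0.54 (SE) on the log2 scale (adjusted p = 0.00896, edgeR), higher in Chtop than in Nxf1 by 2.56 ± 0.55 (SE, adjusted p = 0.000156) and higher in Chtop than in the Control by 1.94 ± 0.54 (SE, adjusted p = 0.00745). OGT intron 4 was called in none of the 6 comparisons. Its differences were -0.27 ± 0.50 (SE, adjusted p = 0.770) for Alyref against Nxf1, -0.45 ± 0.50 (SE, adjusted p = 0.500) for Chtop against Nxf1 and 0.29 ± 0.68 (SE, adjusted p = 0.750) for Chtop against the Control, and each of these changed sign under some alternatives. Against the Control, OGT intron 4 passed without Nxf1 replicate 2 (1.55 for Alyref, adjusted p = 0.0415, and 1.52 for Chtop, 0.0407) and without Nxf1 replicate 3 (1.55, 0.0371, and 1.51, 0.0382). A p that misses the threshold does not show that the levels were equal. The call for OGT exons between Alyref and Nxf1 was lost without Alyref replicate 2 (adjusted p = 0.0771) or 3 (0.0558), without Nxf1 replicate 2 (0.0860) or 3 (0.135), and at a minimum count of 10 (0.0794). That between Chtop and the Control was lost with DESeq2 size factors (0.95 on the log2 scale, adjusted p = 0.207) and at a minimum count of 10 (1.12, 0.141).

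The exons of OGA held 15, 202 and 225 tags in the Chtop libraries and 3, 1 and 0 in the Control libraries. In CPM this was 319, 375 and 524 in Chtop against 428, 21.4 and 0 in the Control. The shallow Control replicate 1 thus lay within the Chtop range. The exons of OGA were higher in Chtop than in the Control by 3.10 ± 0.73 (SE, adjusted p = 0.00164, edgeR). This call was kept in all 20 alternatives, with 2.05 to 5.61 on the log2 scale. The exons of CLK1 were higher in Alyref than in Nxf1 by 2.69 ± 0.81 (SE, adjusted p = 0.0329), a call lost without Alyref replicate 2 (0.0818) or 3 (0.0505) and without Nxf1 replicate 2 (0.0944) or 3 (0.234), with the replicate block (0.0633), with no filter (0.0692) and at a minimum count of 10 (0.0906). In the Control the exons of CLK4 held 0 tags, so no fold is given. The features tested were 8 in all, the exons of CLK1, CLK2, CLK4, OGT and OGA, OGT intron 4, and introns 3 and 10 of OGA. The share of all features called was 3.17%, 20.4% and 0.204% against the Control (Alyref, Chtop and Nxf1), 9.73% for Alyref against Chtop, 5.07% for Alyref against Nxf1 and 30.5% for Chtop against Nxf1. Differences from the Control in this fit are to be read against a median of all features of 1.01 (Alyref), 1.06 (Chtop) and 0.94 (Nxf1).

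Between Alyref and Control, Nxf1 and Control, and Alyref and Chtop, 0 of the 8 member features were called by edgeR. Of these, 3, 1 and 1 had an unadjusted p under 0.05, and DESeq2 called 2, 0 and 0. The 0 for Alyref against the Control depended on the setting. The exons of OGT, at 1.50 ± 0.54 (SE, adjusted p = 0.0773), and of OGA, at 2.33 ± 0.77 (SE, adjusted p = 0.0588), were each called in 15 alternatives, those of CLK1 and CLK2 in 8 each and those of CLK4 in 9. The features called in this comparison over all genes ran from 0 to 3044 over the alternatives (233 in the fit above). The exons of OGA were also called between Nxf1 and the Control in 4 alternatives, and those of CLK1 between Alyref and Chtop with DESeq2 size factors (1.31, adjusted p = 0.0282).

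In OGA the intronic tags were spread over more introns. Intron 10 (chr10:103553756-103557736, 3981 nt) held 85 of 267 intronic tags, intron 3 (chr10:103570072-103572786, 2715 nt) 59 and intron 14 (chr10:103547281-103550652, 3372 nt), named after its values were seen, 45. Their densities were 21.4, 21.7 and 13.3 tags per kb. Intron 10 held 24.6, 22.2 and 19.9 CPM in the Alyref libraries and 0, 50.1 and 48.9 CPM in Chtop, against 123, 33.6 and 11.2 CPM in Nxf1 and 0, 42.9 and 0 CPM in the Control. Intron 3 held 12.3, 17.4 and 19.9 CPM in Alyref and 42.5, 31.5 and 16.3 CPM in Chtop, against 0, 33.6 and 11.2 CPM in Nxf1 and 0, 64.3 and 0 CPM in the Control. Neither was called in any comparison, and the groups overlapped. Intron 10 held 41.4% of the intronic tags of OGA in Chtop (48 of 116, Wilson 95% interval 32.8% to 50.5%) and 25.7% in Alyref (28 of 109, 18.4% to 34.6%), whereas intron 3 held 22.4% and 22.0%.

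In each CLK gene, introns 3 and 4, which flank exon 4, included the leading intron. CLK1 intron 3 (chr2:201724939-201725960, 1022 nt) held 26 of 59 intronic tags, with 2, 14 and 7 in the Alyref libraries, 1, 1 and 0 in Chtop, 0, 1 and 0 in Nxf1 and 0 in every Control library. In CPM this was 24.6, 22.2 and 11.6 for Alyref. CLK4 intron 3 (chr5:178044436-178045556, 1121 nt) held 15 of 50, of which 12 were from Alyref, 1 from Chtop and 2 from Nxf1. The longer CLK4 intron 2 (4477 nt), named after its values were seen, held 16, of which 12 were from Alyref. Its density was 3.57 tags per kb, against 13.4 in CLK4 intron 3. CLK2 intron 4 (chr1:155238151-155238498, 348 nt) held 21 of 82, with 11 from Alyref, 8 from Chtop, 1 from Nxf1 and 1 from the Control, and CLK2 intron 3 (692 nt), named after its values were seen, held 20, of which 18 were from Alyref.

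CLK3 intron 4 led by only a small margin, with 3 tags at 10.8 per kb. CLK3 intron 3 (chr15:74912567-74914460, 1894 nt), named after its values were seen, held 19 of 45 intronic tags at 10.0 per kb, with 11 from Alyref, 4 from Chtop, 4 from Nxf1 and 0 from the Control. None of these CLK introns passed the filter of the feature fit. A count of 0 in the deepest Control library allows 64.3 CPM, more than the 36.9 CPM that was the highest Alyref value of CLK4 intron 3 and than any Alyref value of CLK1 intron 3. The 0 Control tags of CLK1 intron 3 and CLK4 intron 3 thus do not show a level below that of Alyref. Differences of these CLK introns from the Control were not tested in that fit.

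The tags of each intron were compared with the share of the intronic tags of its gene that the square root of its length would give. The study used a like weight to define detained introns from RNA-seq, but with an effective length and only for sequence that overlaps no exon. It also required a test, so that the values here are not calls of detained introns. The tags of OGT intron 4 were 8.48 times the expectation from the plain length, those of CLK1 intron 3 4.24 times, CLK4 intron 3 4.01 times and CLK2 intron 4 4.00 times. CLK3 intron 3 reached 3.39 times, and OGA introns 10 and 3 reached 3.11 and 2.61 times. At least 4 times the expectation was reached by 4 of the 84 introns of the members (4.76%) and by 1361 of the 112068 introns of all genes with at least 20 intronic tags (1.21%). The 2 values closest to the limit, 4.01 and 4.00, rested on 15 and 21 tags. By group, OGT intron 4 reached 7.84 times in Alyref and 9.32 times in Chtop, whereas CLK1 intron 3 reached 5.82 and 1.75 times and CLK4 intron 3 4.86 and 1.49 times. CLK2 intron 4 reached 3.07 times in Alyref and 5.96 times in Chtop. The pooled CLK1 and CLK4 values thus rested mostly on Alyref tags, but their Chtop values on 2 of 11 and 1 of 9 intronic tags. The 95% Wilson intervals of these Chtop shares overlapped those of Alyref. In Nxf1 and the Control, OGT intron 4 reached 8.76 and 8.66 times and CLK1 intron 3 1.37 and 0 times. CLK4 intron 3 reached 6.69 and 0 times there, and CLK2 intron 4 5.21 and 7.82 times. These CLK values in Nxf1 and the Control rested on 0 to 2 tags.

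**Figure D5:**
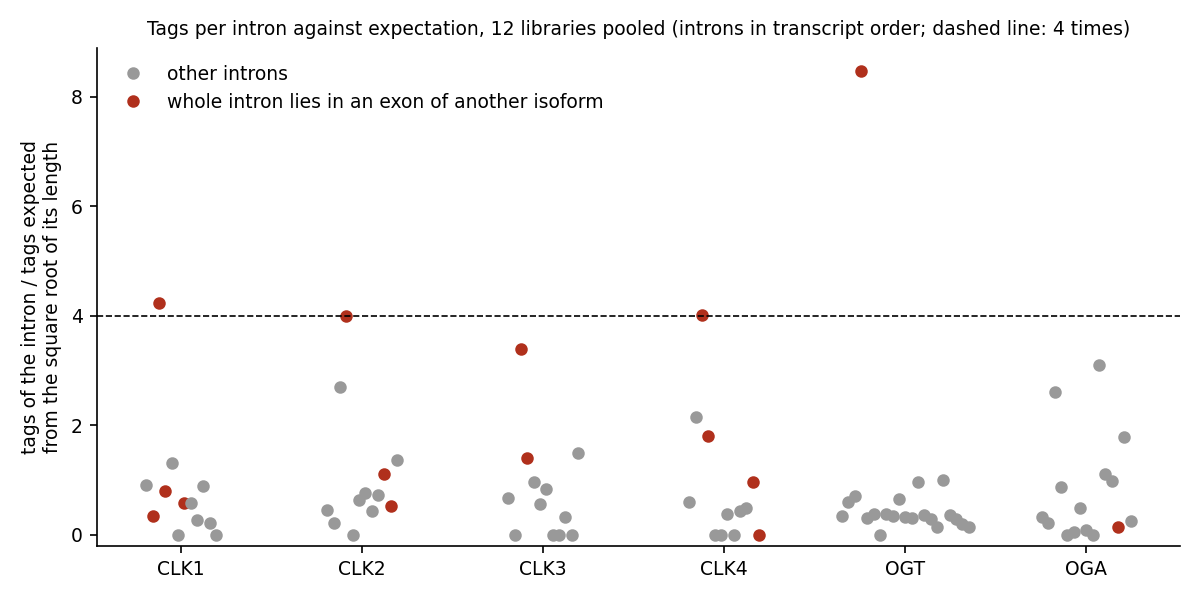
Tags of each of the 84 introns over the tags expected from the square root of its length (vertical axis), in transcript order within each gene, with the 12 libraries pooled. OGT intron 4 lies at 8.48 and the leading introns of CLK1, CLK2 and CLK4 at or just above the dashed line at 4, and all 4 lie whole in an exon of another isoform (red).

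Each of the 4 introns at or above 4 times lies whole in an exon of at least 1 other isoform, which was noted after their values were seen. Of the 84 introns of the members, 15 (17.9%) were of this kind. Over all genes with at least 20 intronic tags, 6.01% of the 112068 introns were, and 262 of the 1361 at or above 4 times (19.3%). Introns of this kind held 13.9 tags per kb in CLK1 against 3.50 in its other introns, 38.8 against 7.06 in CLK2, 10.1 against 2.22 in CLK3, 7.74 against 1.43 in CLK4 and 97.5 against 4.99 in OGT. In OGA it was 3.77 against 9.32, from 1 intron of 265 nt. They were denser than the others in 5 of the 6 members, and in 69.5% of the 2755 genes with introns of both kinds.

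The intronic base with most tags lay in OGT at the end of intron 17, directly before the AG of its 3′ splice site, with 5 tags, 3 from Alyref and 2 from Chtop. It is shown because it is the strongest single intronic position of the 6 transcripts, with the crosslinked base in capitals.
OGT intron 17 (chrX:70783164-70783188, plus strand): gcatttttttttCagatgaagtgtc
In the other members no intronic base held more than 3 tags. Uracil made up 61.2% of crosslinked intronic bases of the members in Alyref (Wilson 95% interval 56.9% to 65.2%, 520 tags) and 55.4% of exonic ones (52.9% to 57.8%, 1605 tags), and in Chtop 63.2% (58.0% to 68.1%) and 58.8% (56.5% to 61.1%). In Nxf1 the intronic share was 53.8% (43.7% to 63.7%, 91 tags) and in the Control 66.7% (50.3% to 79.8%, 36 tags). The exonic share in these 2 groups was 46.25% and 42.4%. Over all tags uracil made up 54.6% in Alyref, 55.2% in Chtop, 52.8% in Nxf1 and 52.9% in the Control. No value for the introns of all genes was computed, so that the intronic share is not shown to be particular to these transcripts.

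Within the exons, Chtop tags lay nearer the 3′ end than Alyref tags. The 3′ UTR held 29.4% of the exonic tags of CLK1 in Chtop and 11.9% in Alyref, 54.2% and 24.8% in CLK2, 3 of 10 and 2 of 40 tags in CLK3, 62.8% and 21.1% in CLK4, 29.7% and 21.9% in OGT, and 57.9% and 37.6% in OGA. The share was higher in Chtop for 6 of 6 members, and for 84.8% of the 5434 genes with at least 20 exonic tags in each group, and a count of 6 of 6 is to be read against that background. Over the 6 members pooled it was 24.4%, 22.1% and 25.2% in the Alyref libraries and 32.8%, 39.1% and 38.6% in the Chtop libraries, without overlap. Over all genes it was 28.9%, 27.1% and 29.6% in the Alyref libraries and 43.9%, 44.6% and 47.5% in the Chtop libraries, also without overlap. The split of the members is thus not particular to them.

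Copies of the sequences elsewhere in the genome limit some of these values. Windows of 30 nt that occur more than once made up 19.8% of the exonic windows of CLK2 and 12.9% of those of CLK3, against 0 to 0.340% in the other members. Tags of the CLK2 and CLK3 exons are thus uncertain, since only uniquely mapped reads were kept. The processed copy CLK2P1 (chr7:23624681-23625974) held 3 tags, all from Alyref, and CLK3P2 (chr1:248099363-248100815) held 0. In introns, such windows made up 1.96% in CLK3 to 23.7% in OGA.

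Other genes of the same pathways were described for comparison. Of 8 further kinases that act on SR proteins or splicing factors (SRPK1, SRPK2, SRPK3, DYRK1A, DYRK1B, DYRK2, DYRK3, PRPF4B), 5 were tested, and their number called against the Control was 0 for Alyref, 1 for Chtop and 0 for Nxf1, beside the 0.267%, 15.2% and 0.0297% of all genes. SRPK2, a kinase of SR proteins, was lower in Chtop than in the Control, with a difference of -1.31 ± 0.45 (SE, adjusted p = 0.0439, edgeR), and DYRK1A gave the largest value for Alyref and Nxf1, 1.14 ± 0.49 (SE, adjusted p = 0.246) and 1.48 ± 0.50 (SE, adjusted p = 0.419). Between Alyref and Chtop 1 was called lower (DYRK2), and between Chtop and Nxf1 2 were called higher (DYRK2 and PRPF4B) and 1 lower (SRPK2). The share of all genes called in these 2 comparisons was 16.5% and 25.8%. The median over the 5 was 0.36, 0.79 and -0.10 for Alyref, Chtop and Nxf1 against the Control, beside 0.16, 0.16 and 0.12 for all genes. Of 10 genes of hexosamine synthesis and O-GlcNAc handling, only HCFC1 and SLC35A3 were tested. HCFC1, a transcriptional cofactor that OGT cleaves, was higher in Chtop than in the Control by 1.63 ± 0.50 (SE, adjusted p = 0.0245) and than in Nxf1 by 1.01 ± 0.35 (SE, adjusted p = 0.0326), and its difference of Alyref from Chtop was -0.94 ± 0.30 (SE, adjusted p = 0.0273). SLC35A3, a transporter of UDP-N-acetylglucosamine, was called in none.

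The genes whose CPM over the 12 libraries varied most like those of the members were RBM3 and ARFGAP2 for CLK1 (Pearson r 0.84 and 0.83), MRTFB and ZMYM3 for CLK2 (0.96 and 0.94), HP1BP3 and PAXBP1 for OGT (0.98 and 0.95) and SCML1 and SFPQ for OGA (0.93 and 0.92). These values rest on log2 CPM of libraries that differ widely in depth, and are a description only.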

How the data were processed

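The data were iCLIP crosslinked bases in 12 libraries, 3 each of Alyref, Chtop, Nxf1 and Control. The authors removed phiX reads with Bowtie 1.1.2, handled random barcodes with UMI-tools 0.5.3, demultiplexed and trimmed with Reaper, kept reads that STAR 2.4.2a placed once in hg19, and collapsed duplicates after joining the lanes of a library (versions per the submitters' processing notes). The deposited values are counts of deduplicated reads per crosslinked base and strand, not normalized.

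Tags were assigned by strand to GENCODE release 44 genes mapped to GRCh37, and to exons and introns of the canonical transcript of 19234 protein-coding genes. Tags in more than 1 gene were left out of the fits. They were kept in the tag counts, CPM and shares of the members and in the intron expectations. Counts were tested with edgeR 4.0.16 in R 4.3.3 (quasi-likelihood F-test, TMM, all 12 libraries in 1 fit, Benjamini-Hochberg over all features, threshold 0.05), with filterByExpr at a minimum count of 10 for genes and 3 for exon and intron features. The ratio of intronic to exonic tags was fitted with the library as a block, for genes with at least 10 tags in each part. Scripts were tested on simulated data. Alternatives were DESeq2 1.42.0, other normalization, filters, definitions of exons, the replicate number as a block and each library left out. Genes named were the 6 members, the members of 2 pathway lists with the largest change against the Control (up to 2 per list and factor), the introns tested or with most tags per nt (at least 50 nt long) and the 2 genes most like each member (log2 CPM, prior count 2). The members and lists were chosen with earlier results of these data known. Replicate numbers coincide with sets of sequencing lanes in the titles, but same-numbered libraries did not all deviate together (r -0.337 to 0.522, median 0.0898, 18 pairs). Leaving out the 2 libraries under 10000 tags was added after the data were seen. Group-pooled copies of the files were not used, and 0 columns of per-sample values were left unused.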

Additional observations from a re-analysis of the deposited data

How the results depend on the processing

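Over the 6 comparisons, the number of calls of members was 4 at the gene level, 2 with the DESeq2 test (CLK1 between Alyref and Nxf1 had no adjusted p there), 7 without the 2 libraries under 10000 tags, and 2 to 8 with 1 library left out. For exon and intron features it was 5, but 11 with tags in several genes counted to each, 13 with no filter, 2 at a minimum count of 10, 11 with strict introns, 10 without the 2 shallow libraries and 6 to 16 with 1 library left out. For the intron to exon ratio it was 2, but 7 with the DESeq2 test, 0 with parts scaled by their own totals, 1 with the replicate block, 7 without the 2 shallow libraries and 1 to 5 with 1 library left out. These numbers of calls are to be read against the shares of all genes and features called, given above for each comparison. The pooled share outside exons fell from 24.9% to 15.8% in Alyref and from 16.9% to 9.72% in Chtop with strict parts, in which bases exonic in some isoforms and intronic in others, such as all of OGT intron 4, are left out.

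OGT intron 4 changed sign, without passing the threshold where it did so: to -0.029 for Alyref against Chtop and to 0.75 and 0.78 for Alyref and Chtop against Nxf1 with no filter, to -0.50 and -0.75 for Alyref and Chtop against the Control with DESeq2 size factors, to -0.20 and -0.55 at a minimum count of 10, and to 0.17 and 0.15 for Alyref and Chtop against Nxf1 without the 2 shallow libraries. With 1 library left out it ran from -0.16 to 0.33 for Alyref against Chtop, from -0.31 to 0.71 for Alyref against Nxf1 and from -0.35 to 0.68 for Chtop against Nxf1. Against the Control it ran from 0.41 to 1.93 for Alyref, from 0.39 to 1.72 for Chtop and from 0.24 to 2.03 for Nxf1, and the first pair passed without Nxf1 replicate 2 or 3. With parts scaled by their own totals the ratio of OGA in Chtop against Nxf1 turned to 0.13 and that of OGT in Chtop against the Control to 1.15. The causes were not tested.

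With the replicate block, the calls of members numbered 4 at the gene level, 4 for features and 1 for the ratio. It lost both CLK1 calls, that of the CLK1 exons and that of the OGA ratio, and gained at the gene level OGA between Chtop and the Control (1.40, adjusted p = 0.0325, edgeR) and OGT between Alyref and Nxf1 (1.38, adjusted p = 0.0409). Over all genes and features, counts of calls moved by more than 1.5 times with the library left out and the scaling. For Chtop against the Control they ran from 97 to 759 for genes (511 in the report), from 471 to 4236 for features (1499) and from 0 to 1122 for the ratio (777). For Chtop against Nxf1 they ran from 194 to 1210 (870), from 545 to 2847 (2241) and from 38 to 1776 (1390). DESeq2 size factors moved the median of all features against the Control to 0.02 (Alyref), -0.01 (Chtop) and 0.36 (Nxf1), and the features called higher and lower in Chtop from 1089 and 410 to 168 and 1047, in Alyref from 213 and 20 to 10 and 181. Depth limits the Control and Nxf1 values most.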
